A study of Mus musculus with 4 samples.

Results

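The endothelial and mural cell genes examined here are 8 genes of the vessel wall, Cdh5, Cldn5, Kdr, Slco1a4, Ly6c1, Vtn, Acta2 and Notch3. They were chosen by name with earlier results of these data known. That all 8 were among the 5282 genes of the deposited table is therefore no result. RNA was measured in corpus callosum and cortex labelled as 1 tissue, from mice at postnatal day 15. The Pdgfra-creER;SmoM2 genotype (SmoM2) gave 2 samples and wild type (WT) mice gave 2, and both groups had received tamoxifen on postnatal days 5 to 7, so tamoxifen was shared and the transgenes were not. The study set out to find genes that change downstream of Smo. SmoM2 is an oncogenic Smoothened variant that keeps hedgehog signalling on without ligand. Pdgfra-creER is a tamoxifen-dependent recombinase driven from Pdgfra, a gene of oligodendrocyte precursors and of fibroblasts; it is not a marker of endothelial cells. Single and pooled animals are not told apart by the labels, so p-values measure the spread between these samples, which may be technical.

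Brain capillaries are tubes of endothelial cells joined by adherens and tight junctions, and these junctions together with selective transporters form the blood-brain barrier. Mural cells wrap the tube, as pericytes on capillaries and as contractile smooth muscle cells on arteries and arterioles. Endothelial cells recruit pericytes through platelet-derived growth factor B, and Notch signalling between the layers maintains smooth muscle. In brain tissue both layers are a small share of all cells, and in bulk RNA fewer cells of a type and less RNA per cell cannot be told apart.

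Cdh5, Cldn5, Kdr, Vtn, Acta2 and Notch3 rose in SmoM2 and Slco1a4 and Ly6c1 fell. By the authors' deposited table all 8 had adjusted p values of 0.05 or less, the rule by which a gene is said here to rise, fall or change. At a limit of 0.01, 7 passed, Kdr being the exception, and so did 22.9% of all genes listed there. The background is high, because every gene in the table has an unadjusted p of at most 0.05 and was chosen by the authors on these samples: 37.3% of the listed genes passed, 21.3% as higher and 16.0% as lower. Levels of both groups did not overlap for any of the 8 genes, which held for 84.7% of all listed genes, 49.5% with SmoM2 higher and 35.2% with SmoM2 lower. A level is the authors' per-sample expression value, taken here as scaled for gene length and library size; the sources used here do not say if it is TPM or FPKM. A recalculation from the levels with limma, on log2(level + 1) and adjusted over 57010 tests, passed 0 of the 8 and 0.124% of all fitted genes; the lowest adjusted p of the 8 was 0.267, for Slco1a4. At an unadjusted p of at most 0.05 limma passed 7 of the 8, against 55.5% of all fitted genes. With 2 samples against 2, an exact permutation test of a single gene cannot give a two-sided p below 0.33.

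Summed over the listed genes, levels came to between 469062 and 512833 per sample, and depth is unknown since the table holds no counts. Smo, the gene altered by design, was at 10.73 and 10.96 in SmoM2 samples and at 7.12 and 5.75 in WT samples. Each of the 8 genes had a level above 0 in all 4 samples, so the defining markers of both layers were present in every library. By mean level the order in SmoM2 was Cldn5, Vtn, Ly6c1, Slco1a4, Acta2, Kdr, Cdh5 and Notch3. In WT it was Ly6c1, Cldn5, Vtn, Slco1a4, Kdr, Acta2, Cdh5 and Notch3. Across samples, levels of neighbouring genes overlapped for Cldn5 and Vtn in SmoM2, and in both groups among Kdr, Acta2 and Cdh5. Within each sample, Cldn5 was above Vtn in SmoM2, and Kdr was above Cdh5 in both groups. Acta2 changed place with Kdr between samples in both groups, and with Cdh5 in WT, so its place is not resolved.

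**Figure D1:**
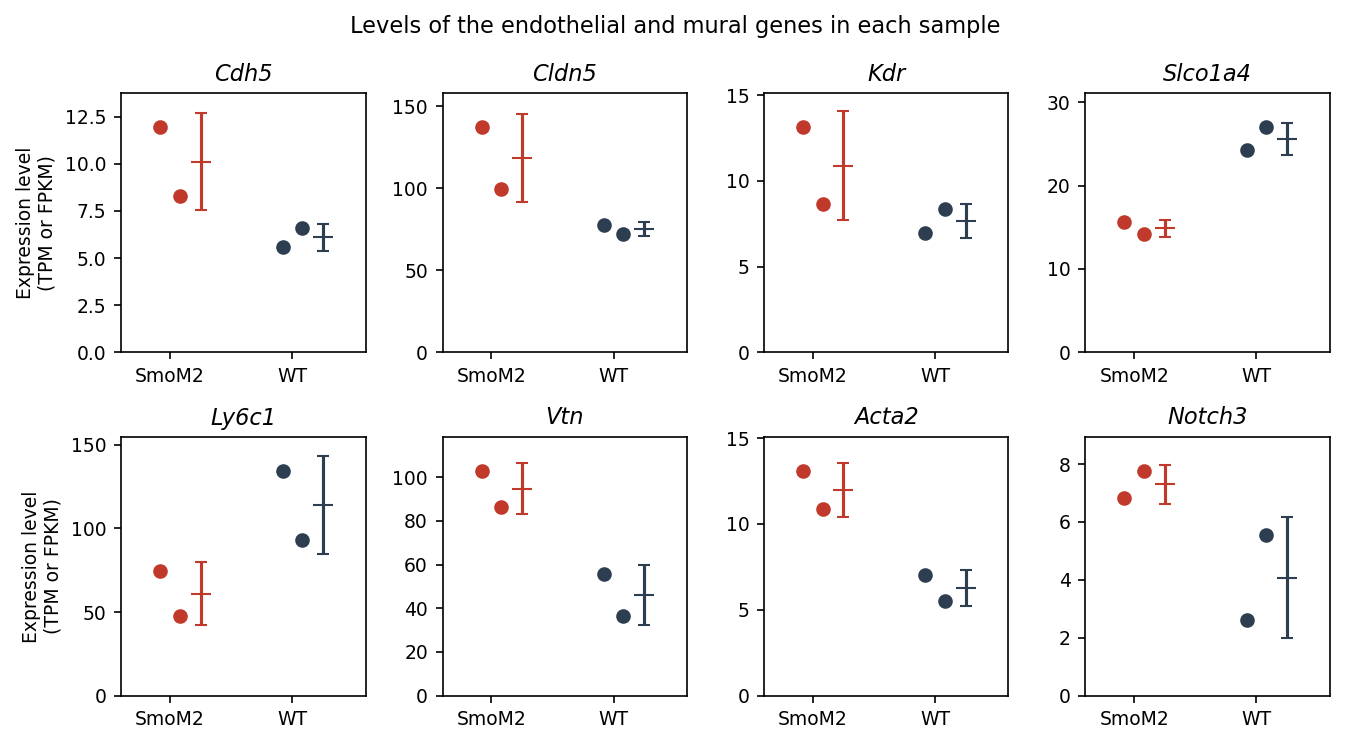
Expression level (TPM or FPKM, not stated which) of each gene in each sample, with SmoM2 samples left and WT samples right; points are samples, and bars give the mean and SD of 2 samples. SmoM2 points lie above all WT points for 6 genes and below them for Slco1a4 and Ly6c1; the smallest gap is that of Kdr, with 8.66 in the lower SmoM2 sample and 8.34 in the higher WT sample.

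The junction genes came first in the endothelial group. Cdh5 (ENSMUSG00000031871, chromosome 8, 104101625 to 104144511, GRCm38) encodes VE-cadherin, the adhesion protein of endothelial adherens junctions. Its level was 11.95 and 8.29 in SmoM2 samples and 5.58 and 6.62 in WT samples. SmoM2 replicate 1 stood highest, and SmoM2 replicate 2 stood 1.67 above the nearest WT sample. Cdh5 averaged 10.1 ± 2.59 in SmoM2, against 6.10 ± 0.735 in WT (SD, n = 2 each); the authors' deposited table gave it a log2 fold change of 0.66, adjusted p 0.00099. The limma log2 difference was 0.63 ± 0.21 (SE), and 0.39 without SmoM2 replicate 1.

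Cldn5 (ENSMUSG00000041378, chromosome 16, 18776847 to 18778262), the claudin that seals brain endothelial tight junctions, had the highest mean level of the 8 genes in SmoM2. It read 137.22 and 99.44 in SmoM2 samples and 77.87 and 71.87 in WT samples. Again SmoM2 replicate 1 was the highest sample, while both WT samples lay close together. Cldn5 averaged 118 ± 26.7 in SmoM2, against 74.9 ± 4.24 in WT (SD, n = 2 each); its entry in the authors' deposited table was a log2 fold change of 0.59, adjusted p 1.18e-05. Its limma log2 difference of 0.64 ± 0.16 (SE) became 0.41 without SmoM2 replicate 1.

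Kdr (ENSMUSG00000062960, chromosome 5, 75932827 to 75978458) encodes VEGF receptor 2, the main signalling receptor for vascular endothelial growth factor on endothelial cells. Its level was 13.14 and 8.66 in SmoM2 samples and 6.95 and 8.34 in WT samples. Only 0.32 separated the nearest samples of the groups, and the lower SmoM2 sample lay nearer to both WT samples than to the other SmoM2 sample. Kdr averaged 10.9 ± 3.17 in SmoM2, against 7.65 ± 0.983 in WT (SD, n = 2 each), and its log2 fold change was the weakest of the 8 in the authors' deposited table, 0.44, adjusted p 0.0149. The limma log2 difference was 0.44 ± 0.22 (SE), 0.16 without SmoM2 replicate 1 and 0.71 without SmoM2 replicate 2. When samples were scaled to equal medians, the levels of Kdr overlapped between groups. Cdh5, Cldn5 and Kdr shared the order of the SmoM2 samples, with replicate 1 the higher. That order also held for Slco1a4, Ly6c1, Vtn and Acta2, but not for Notch3.

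Slco1a4 (ENSMUSG00000030237, chromosome 6, 141805440 to 141856199) encodes Oatp1a4, an organic anion transporter of the brain capillary endothelium. It was at 15.60 and 14.17 in SmoM2 samples and at 24.29 and 27.02 in WT samples. Both groups were tight and 8.69 apart at their nearest samples. Slco1a4 averaged 14.9 ± 1.01 in SmoM2, against 25.7 ± 1.93 in WT (SD, n = 2 each); the authors' deposited table gave it a log2 fold change of -0.97, adjusted p 2.41e-10. Its limma log2 difference of -0.75 ± 0.13 (SE) had the smallest SE of the 8, and it ran from -0.82 to -0.67 with a library left out.

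Ly6c1 (ENSMUSG00000079018, chromosome 15, 75044018 to 75048830) encodes a GPI-anchored surface protein of brain endothelium. Its level was 74.23 and 47.53 in SmoM2 samples and 134.42 and 93.22 in WT samples. The samples spread widely within both groups, and both SmoM2 samples stayed below both WT samples. Ly6c1 averaged 60.9 ± 18.9 in SmoM2, against 114 ± 29.1 in WT (SD, n = 2 each); the authors' deposited table gave it a log2 fold change of -0.99, adjusted p 1.21e-10. The limma log2 difference was -0.90 ± 0.25 (SE), and -0.59 without SmoM2 replicate 2. Of the 795 different 50-base stretches in the longest annotated Ly6c1 transcript, 292, or 36.7%, also occur in transcripts of another gene, mostly Ly6c2 at 252 stretches, so its level may share reads with that copy and is uncertain. Ly6c2 had no row in the table. Among 12 genes of the Ly6 family 5 had a row, Ly6a fell alongside Ly6c1, Ly6h and Lypd1 rose, and Lypd6, at a log2 fold change of -0.34 by the authors' deposited table, did not pass. Ly6a read 18.84 and 14.77 in SmoM2 samples and 26.84 and 27.00 in WT samples, and 5.03% of the Ly6c1 stretches occur in it. Ly6h, a neuronal member of the family, averaged 556 ± 45.1 in SmoM2, against 350 ± 35.2 in WT (SD, n = 2 each). For Lypd1 the limma log2 difference of 0.51 became 0.21 without WT replicate 2 and 0.81 without WT replicate 1.

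Among the mural genes, Vtn (ENSMUSG00000017344, chromosome 11, 78499091 to 78502324) had the highest level. It encodes vitronectin, a secreted adhesion protein that brain pericytes express. It read 102.99 and 86.42 in SmoM2 samples and 55.86 and 36.27 in WT samples, which left 30.56 between the nearest samples. Vtn averaged 94.7 ± 11.7 in SmoM2, against 46.1 ± 13.9 in WT (SD, n = 2 each); the authors' deposited table gave it a log2 fold change of 0.93, adjusted p 2.18e-14, the lowest of the 8. Its limma log2 difference was 1.05 ± 0.21 (SE), from 0.75 to 1.36 with a library left out.

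Acta2 (ENSMUSG00000035783, chromosome 19, 34241090 to 34255590) encodes smooth muscle alpha-actin, the contractile actin of arterial smooth muscle. Its level was 13.10 and 10.85 in SmoM2 samples and 7.0 and 5.52 in WT samples. All 4 samples kept the order seen for Vtn, replicate 1 above replicate 2 in both groups. Replicate 1 also lay above replicate 2 in both groups for the endothelial genes Cldn5 and Ly6c1. Acta2 averaged 11.98 ± 1.59 in SmoM2, against 6.26 ± 1.05 in WT (SD, n = 2 each); the authors' deposited table gave it a log2 fold change of 0.88, adjusted p 0.00116. The limma log2 difference was 0.84 ± 0.18 (SE), and from 0.69 to 0.99 with a library left out. Other actin genes with a row were Actg1, which rose with a log2 fold change of 0.30, and Actb and Actg2, which the authors' deposited table has at 0.24 and 1.73 without passing. Only 0.352% of the 50-base stretches of Acta2 occur in a transcript of another gene.

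Notch3 (ENSMUSG00000038146, chromosome 17, 32120820 to 32166852) encodes the Notch receptor of mural cells, whose human counterpart is mutated in the small vessel disease CADASIL. Its level was 6.83 and 7.77 in SmoM2 samples and 2.60 and 5.56 in WT samples. The WT samples differed 2.14-fold from each other, the widest spread within a group among the 8 genes. Notch3 averaged 7.30 ± 0.665 in SmoM2, against 4.08 ± 2.09 in WT (SD, n = 2 each); the authors' deposited table gave it a log2 fold change of 0.99, adjusted p 1.18e-08. The limma log2 difference of 0.77 ± 0.30 (SE) became 0.34 without WT replicate 1 and 1.20 without WT replicate 2. An annotated antisense gene, Gm17276, overlaps Notch3 on the other strand, and Gm29682 overlaps Cdh5 in the same way. Of the 50-base stretches in the longest annotated Notch3 transcript, 4.92% also occur in Gm17276. The sources used here do not state if counting used strand, and without strand reads from those stretches cannot be told apart. The longest annotated Cdh5 transcript shares no such stretch with a transcript of another gene.

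**Figure D2:**
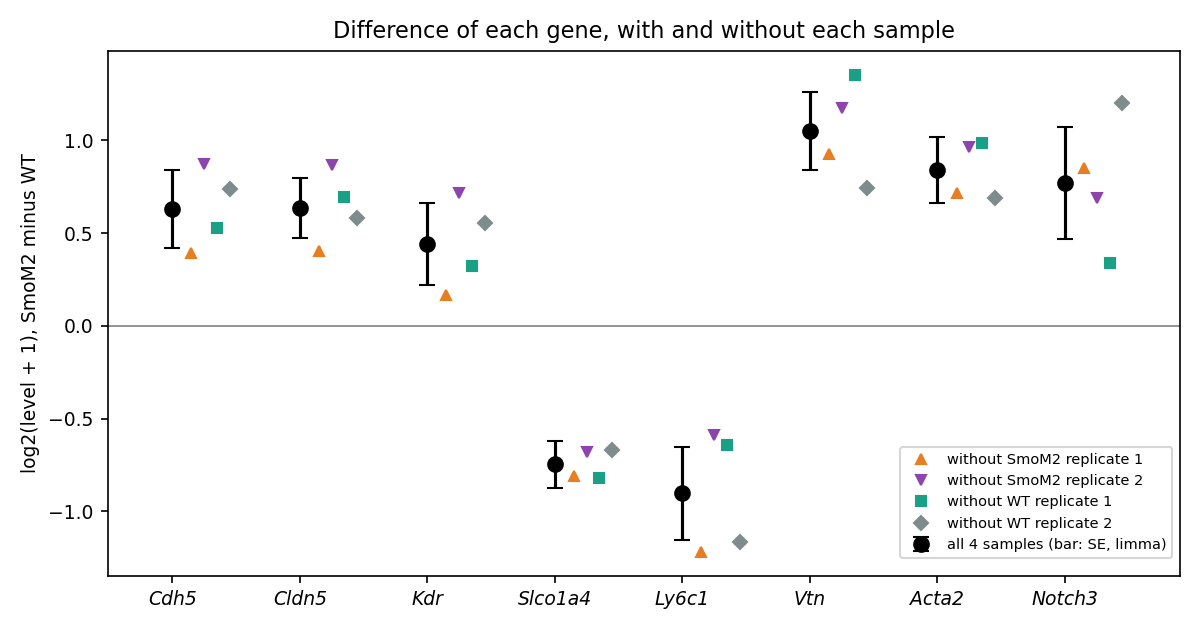
Log2 difference of each gene, SmoM2 minus WT on the log2(level + 1) scale, with all 4 samples (black, bar: SE from limma) and with 1 sample left out (coloured). All values keep their sign, as they must where groups do not overlap. Kdr comes nearest to 0, at 0.16 without SmoM2 replicate 1, and Notch3 spreads the most, from 0.34 to 1.20.

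Within a sample the endothelial genes did not keep their proportions. The ratio of Slco1a4 to Cdh5 was 1.31 and 1.71 in SmoM2 samples and 4.35 and 4.08 in WT samples. That of Ly6c1 to Cdh5 was 6.21 and 5.73 in SmoM2 samples and 24.1 and 14.1 in WT samples. In both cases the SmoM2 samples lay far below the WT samples, with mean ratios at 0.357 and 0.313 times those of WT. That the groups did not overlap was fixed by the levels above, both genes being lower and Cdh5 higher in SmoM2. Because a ratio within a sample does not depend on how samples are scaled against each other, the unequal change of these genes holds under any scaling of whole samples.

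The ratio of Cldn5 to Cdh5, by contrast, was 11.48 and 11.995 in SmoM2 samples and 13.96 and 10.86 in WT samples, and the groups overlapped. The ratio of Kdr to Cdh5 was 1.10 and 1.04 in SmoM2 samples and 1.25 and 1.26 in WT samples, so Kdr was slightly lower relative to Cdh5 in both SmoM2 samples. Ly6c1 over Slco1a4 overlapped between groups, at 4.76 and 3.35 in SmoM2 samples and 5.53 and 3.45 in WT samples. For the mural genes, Acta2 over Vtn was 0.127 and 0.126 in SmoM2 samples and 0.125 and 0.152 in WT samples. The ratios of Vtn, Acta2 and Notch3 to Cdh5 overlapped between groups as well, while Vtn over Cldn5 did not, at 0.751 and 0.869 in SmoM2 samples and 0.717 and 0.505 in WT samples.

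**Figure D3:**
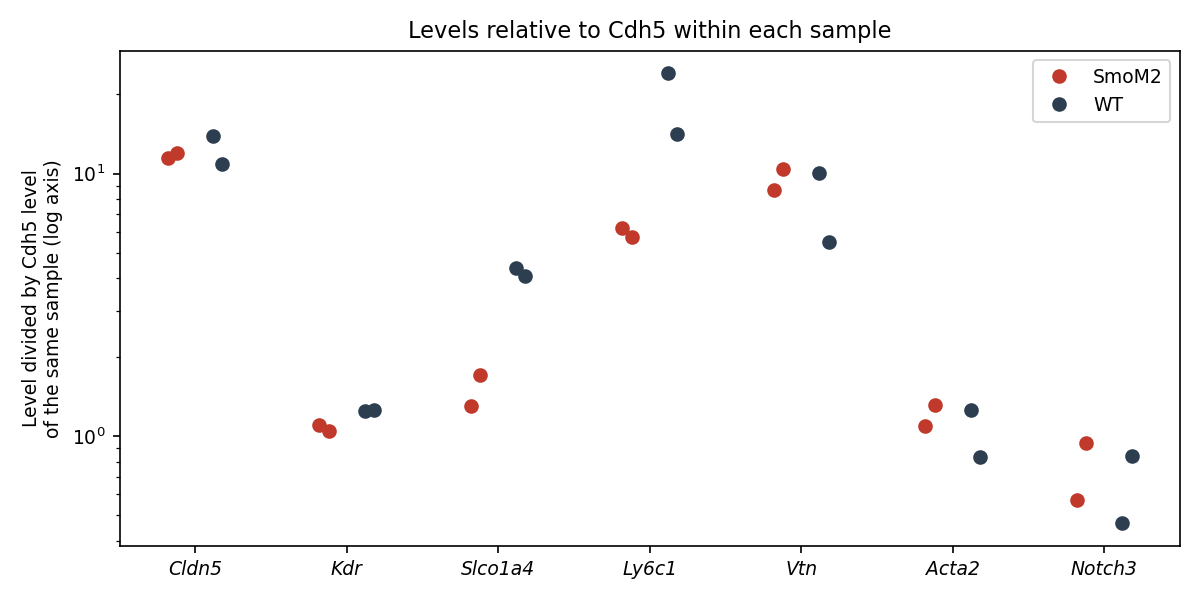
Level of each gene divided by the level of Cdh5 in the same sample, on a log axis, with SmoM2 samples left of WT samples. Slco1a4 and Ly6c1 lie lower in both SmoM2 samples, Kdr slightly lower, and the other 4 genes overlap.

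Promoter sequences were compared because genes of both layers rose together and Notch3 is a receptor whose signal ends at the DNA-binding protein RBPJ. RefSeq sequences of GRCm38.p6 were found for 7 of the 8 genes. The windows below, of 250 bases before the RefSeq start, are those of Kdr and Vtn, which rose and hold the RBPJ core TGGGAA. The window of Slco1a4, which fell and does not hold it, is also shown. Cldn5 and Notch3 rose and have no match either, nor does Ly6c1, which fell. Every gene with a match rose, but not every gene that rose has one. A relation of the match to the direction of change was not tested. Capitals mark TGGGAA.
Kdr, chr5:75978456-75978705, minus strand: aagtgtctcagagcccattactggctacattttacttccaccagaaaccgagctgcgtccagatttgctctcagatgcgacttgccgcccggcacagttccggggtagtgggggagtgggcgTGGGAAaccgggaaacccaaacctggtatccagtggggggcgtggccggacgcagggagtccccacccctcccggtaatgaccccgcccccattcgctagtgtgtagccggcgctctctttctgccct
Vtn, chr11:78498870-78499119, plus strand: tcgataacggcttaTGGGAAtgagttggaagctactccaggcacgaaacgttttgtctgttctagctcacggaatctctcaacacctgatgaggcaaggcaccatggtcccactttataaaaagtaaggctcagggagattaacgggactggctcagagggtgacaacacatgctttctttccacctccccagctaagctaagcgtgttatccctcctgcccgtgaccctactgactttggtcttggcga
Slco1a4, chr6:141856221-141856470, minus strand: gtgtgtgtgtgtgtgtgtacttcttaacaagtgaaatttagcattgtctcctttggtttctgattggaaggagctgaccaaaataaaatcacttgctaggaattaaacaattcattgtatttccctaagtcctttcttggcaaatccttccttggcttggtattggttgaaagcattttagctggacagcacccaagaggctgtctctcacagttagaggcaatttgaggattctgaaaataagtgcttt
Acta2 holds TGGGAA from 27 to 22 bases before its RefSeq start, and is shown as a 30-base site because GENCODE M21 counts this stretch as part of a longer first exon.
Acta2, chr19:34255383-34255412, minus strand: ttgctccttgttTGGGAAgcgagtgggagg
Both strands were searched, and 3 of the 7 genes had a match, against 21.6% of 32851 promoter windows of the same length. The TGGGAA of Acta2 overlaps a CArG box, the binding element of serum response factor, that departs from the consensus at 1 inner base; a further such element lies 84 to 75 bases before the start, and 7.24% of all windows hold one. Kdr and Slco1a4 have an element of that kind too. A strict CArG box, the GLI motif GACCACCCA, the TCF/LEF motif CTTTGAA and the ETS motif CCGGAAG had no match in any of the 7 genes, and occur in 1.47%, 0.225%, 4.46% and 6.91% of all windows. A match is a string of letters, and no match says only that these letters are not in the window.

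The other genes of the vessel wall were counted in lists. Of 82 genes in 5 endothelial lists 38 had a row, of which 16 rose, 6 fell and 16 did not pass. The 6 that fell were Slco1a4, Ly6c1, Ly6a, Cd34, Abcg2 and Tfrc. Without the 5 of the 8 genes that belong to these lists, 13 of 33 rose and 4 fell, and the authors' deposited table puts their median log2 fold change at 0.53, that of all listed genes at 0.23. Of 40 genes in 2 mural lists 14 had a row, 8 rose, none fell and 6 did not pass. Without Vtn, Acta2 and Notch3 5 of 11 rose, and by the authors' deposited table the median of these 11 was 0.66 in log2. Among all listed genes 21.3% rose and 16.0% fell, so the 4 of 33 endothelial genes that fell are no larger a share than in the table as a whole. Genes without a row, 44 and 26 of them, were not analysed here.

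In the list of general endothelial genes, 14 of 20 had a row, 6 rose and 3 fell. Eng, the TGF-beta co-receptor endoglin, read 26.37 and 21.87 in SmoM2 samples and 14.60 and 16.97 in WT samples; the authors' deposited table gave it a log2 fold change of 0.53, adjusted p 0.000689. Tie1, an endothelial receptor tyrosine kinase, read 9.87 and 6.70 in SmoM2 samples and 5.13 and 5.64 in WT samples, and its limma log2 difference was 0.52, and 0.27 without SmoM2 replicate 1. Vwf passed although its groups overlapped. Pecam1, the gene of the endothelial adhesion protein CD31, read 18.40 and 13.13 in SmoM2 samples and 11.58 and 12.76 in WT samples and did not pass (adjusted p 0.443 by the authors' deposited table). Egfl7, Sox17, Sox18 and Ets1 were above 0 in log2 fold change and did not pass either. The median limma log2 difference of the list was 0.39, 0.16 without SmoM2 replicate 1 and 0.68 without SmoM2 replicate 2. For all fitted genes these medians were 0.25, 0.19 and 0.20, so without SmoM2 replicate 1 the list lay below them.

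Of 26 genes of blood-brain barrier transport and junctions 12 had a row, of which 2 rose and 3 fell. Without Cldn5 and Slco1a4, 1 of 10 rose and 2 fell, a called share below the 37.3% of all listed genes. Abcg2, an efflux pump of brain capillaries, read 17.67 and 15.85 in SmoM2 samples and 26.12 and 18.98 in WT samples. Tfrc, the transferrin receptor gene, read 41.19 and 32.76 in SmoM2 samples and 42.77 and 51.45 in WT samples. Both fell, and both depended on libraries: the limma log2 difference of Abcg2, -0.39, became -0.17 when WT replicate 1 was left out and -0.61 when WT replicate 2 was; for Tfrc, -0.34, it became -0.18 leaving out SmoM2 replicate 2 and -0.21 leaving out WT replicate 2. Slc38a5, an amino acid transporter, rose and read 12.70 and 14.29 in SmoM2 samples and 7.11 and 7.22 in WT samples. Mfsd2a, the lipid transporter of barrier endothelium, had a log2 fold change of -0.25 and did not pass (adjusted p 0.336 by the authors' deposited table).

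Of 10 venous endothelial genes 5 had a row and all 5 rose, namely Nr2f2, Nrp2, Slc38a5, Ephb4 and Vwf. By the authors' deposited table these 5 log2 fold changes had a median of 0.83. Of all listed genes 21.3% rose, and the median was 0.23. Nr2f2, the transcription factor of venous identity, read 16.27 and 20.06 in SmoM2 samples and 7.26 and 6.26 in WT samples. Nrp2, a semaphorin and VEGF co-receptor, read 14.82 and 15.89 in SmoM2 samples and 6.53 and 7.01 in WT samples. Both genes are also expressed by neurons. Of 14 arterial genes 4 had a row, and Gja4 and Fbln5 rose. Fbln5, an elastic fibre gene, read 12.58 and 5.89 in SmoM2 samples and 3.22 and 4.46 in WT samples, and its limma log2 difference was 1.01, and 0.52 without SmoM2 replicate 1. For Gja4, the connexin 37 gene, it was 0.67, but 0.29 leaving out SmoM2 replicate 1 and 1.05 leaving out SmoM2 replicate 2. Dll4 and Sox17 did not pass; the authors' deposited table has them at log2 fold changes of 0.57 and 0.75.

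Around Kdr, 12 of 24 genes of VEGF and angiopoietin signalling had a row, 7 rose and Cd34 fell. Without Kdr, 6 of 11 rose and 1 fell, against 21.3% and 16.0% of all listed genes. Aplnr, the apelin receptor gene, averaged 8.65 ± 1.90 in SmoM2, against 4.04 ± 0.0919 in WT (SD, n = 2 each); in the authors' deposited table that was a log2 fold change of 1.03, adjusted p 1.19e-06. Plxnd1, a semaphorin receptor, averaged 62.5 ± 7.97 in SmoM2, against 43.3 ± 3.71 in WT. Among ligands, Vegfb and Pdgfb rose, by log2 values of 0.48 and 0.42 by the authors' deposited table, and Vegfa, Vegfc, Pgf and Angpt1 had no row. Cd34, a sialomucin of endothelial cells, read 44.30 and 42.04 in SmoM2 samples and 63.34 and 67.49 in WT samples. Flt4, Angpt2, Dll4 and Adgrl4 did not pass.

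**Figure D4:**
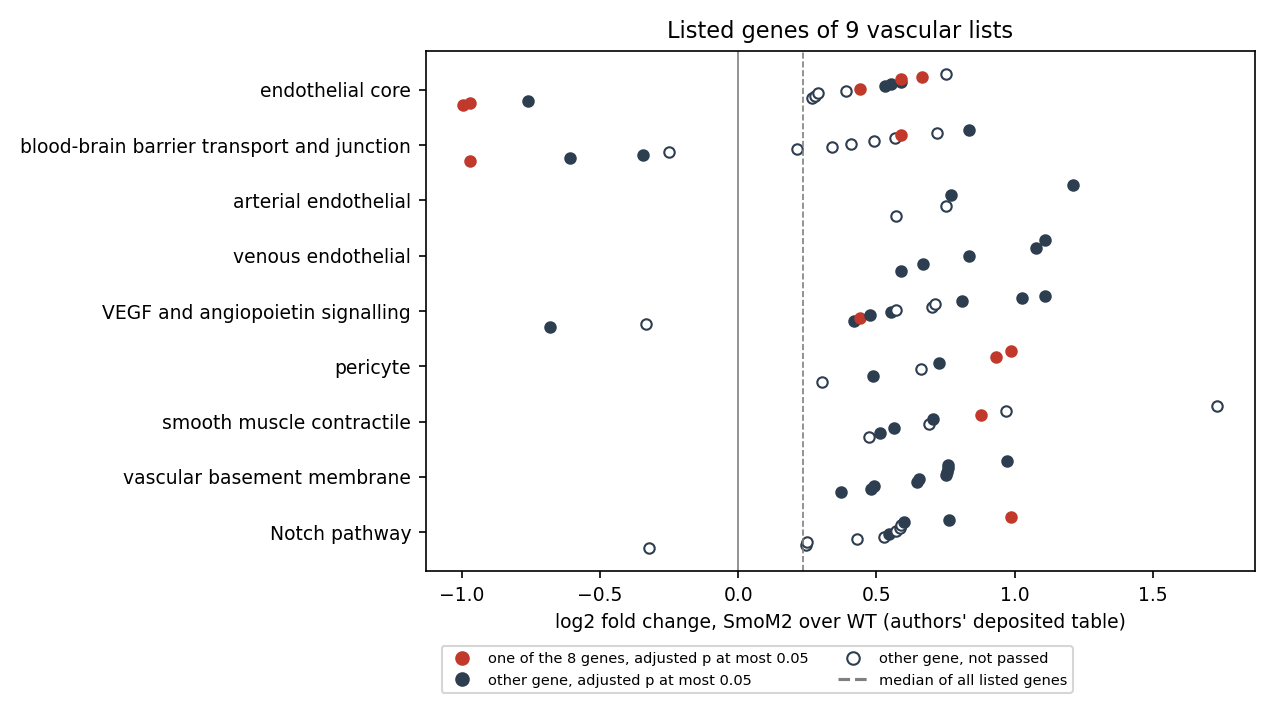
Log2 fold change, SmoM2 over WT, of every listed gene in 9 vascular lists, from the authors' deposited table; filled points passed at 0.05, open points did not, red points are among the 8 genes, and the dashed line is the median of all listed genes, 0.23. Genes below 0 stand in the endothelial, barrier, VEGF and Notch lists, and none in the arterial, venous, pericyte, smooth muscle or basement membrane lists.

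Around Vtn and Notch3, 6 of 19 pericyte genes had a row, and Slc6a20a and Cspg4 rose with them. Without Vtn and Notch3, 2 of 4 rose, against 21.3% of all listed genes. Cspg4 encodes NG2, which oligodendrocyte precursors also carry. Slc6a20a, a proline transporter gene, read 13.05 and 9.50 in SmoM2 samples and 8.08 and 4.72 in WT samples, and its limma log2 difference was 0.75, and 0.42 without WT replicate 2. Pdgfrb, the defining receptor of pericytes, read 11.27 and 7.45 in SmoM2 samples and 6.82 and 7.64 in WT samples, so its groups overlapped and it did not pass (adjusted p 0.301 by the authors' deposited table). Kcnj8, Abcc9, Rgs5 and 10 further pericyte genes had no row. The median limma log2 difference of this list was 0.58, and 0.32 without WT replicate 1. For all fitted genes it was 0.25 and 0.18.

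Around Acta2, 8 of 21 smooth muscle genes had a row, and Myl9, Srf and Flna rose with it. Without Acta2, 3 of 7 rose, against 21.3% of all listed genes. Srf encodes the serum response factor that drives contractile genes; it read 45.68 and 41.38 in SmoM2 samples and 35.65 and 25.13 in WT samples, and its limma log2 difference was 0.52, and 0.28 without WT replicate 2. Myl9, a myosin light chain gene, had one of 0.46, which became 0.23 without WT replicate 2 and 0.69 without WT replicate 1, and Flna passed although its groups overlapped. Myh11, the smooth muscle myosin heavy chain gene, read 1.72 and 0.38 in SmoM2 samples and 0.40 and 0.88 in WT samples and did not pass. Des, Smtn and Actg2 did not pass, and Tagln, Cnn1, Mylk and 10 others had no row.

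In the Notch pathway 12 of 20 genes had a row, Notch1, Notch3, Jag2 and Hes5 rose and none fell. The called share was 33.3%, against 37.3% of all listed genes, 21.3% as higher. Without Notch3, 3 of 11 rose. Hes5, a Notch target gene of neural progenitors and astrocytes, averaged 42.5 ± 4.45 in SmoM2, against 23.4 ± 2.77 in WT (SD, n = 2 each). Heyl, a Notch target of mural cells, read 6.40 and 4.10 in SmoM2 samples and 4.39 and 3.33 in WT samples and did not pass (adjusted p 0.0972 by the authors' deposited table). Jag2, a ligand, had a limma log2 difference of 0.31, which became 0.10 without SmoM2 replicate 1 and 0.51 without SmoM2 replicate 2. That of Notch1, 0.44, became 0.26 when SmoM2 replicate 1 was left out and 0.25 when WT replicate 1 was. The median limma log2 difference of the list was 0.34, 0.21 without SmoM2 replicate 1 and 0.56 without SmoM2 replicate 2. For all fitted genes these medians were 0.25, 0.19 and 0.20, so without SmoM2 replicate 1 the list lay close to them.

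Of 12 genes for vitronectin receptors and the plasminogen system around Vtn, 5 had a row. Vtn rose, and Itgav and Itgb8, which pair as a receptor for vitronectin and latent TGF-beta, fell. Itgav read 16.30 and 13.55 in SmoM2 samples and 24.05 and 23.14 in WT samples, and Itgb8 read 7.08 and 6.43 in SmoM2 samples and 8.09 and 10.66 in WT samples. Both are expressed by astrocytes and other cells too. For Itgb8 the limma log2 difference was -0.41, and -0.23 without WT replicate 2. Of 14 basement membrane genes 10 had a row and all 10 rose, although only 5 of the 10 had groups that did not overlap. Of all listed genes 21.3% rose, and in 84.7% the groups did not overlap. Nid2, the nidogen 2 gene, averaged 4.91 ± 0.658 in SmoM2, against 2.69 ± 0.184 in WT (SD, n = 2 each). Col4a2, a collagen IV chain, had a limma log2 difference of 0.76, which became 0.45 without SmoM2 replicate 1 and 0.46 without WT replicate 1. The median limma log2 difference of this list was 0.48, and 0.72 without SmoM2 replicate 2. For all fitted genes it was 0.25 and 0.20.

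Over the 4 samples, the vascular gene whose profile lay nearest to each of the 8 was sought among 60 other listed genes, as the root mean square difference of mean-centred log2(level + 1). Cdh5 and Kdr both lay nearest to Tie1, at 0.0656 and 0.0606, and Cldn5 to Ephb4, at 0.0457. Slco1a4 lay nearest to Cd34, at 0.0840. Ly6c1 lay nearest to Ly6a but at 0.248, the largest distance of the 8. Vtn lay nearest to Acta2 at 0.153, Acta2 to Aplnr at 0.136 and Notch3 to Sox17 at 0.157. These 4 points share libraries and a group difference, so the distances are a description only.

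Markers of other cells moved with the group. For scale, 21.3% of all listed genes rose and 16.0% fell. All 12 of 14 fibroblast genes with a row rose, none of them at 0, and their summed level was 1879 and 1939 in SmoM2 samples and 1048 and 405 in WT samples. Most of that sum was Ptgds, at 1641 and 1728 in SmoM2 samples and 933 and 313 in WT samples, a prostaglandin synthase gene that other brain cells also express. The other 11 genes summed to 237 and 211 in SmoM2 samples and 115 and 92.6 in WT samples. Of 8 perivascular macrophage genes all had a row, 5 rose, and the sum was 33.9 and 22.8 in SmoM2 samples and 12.99 and 8.56 in WT samples. Fibroblasts can express Acta2 and basement membrane genes, and the part of these cells in the rise of the mural genes was not tested. Of 9 astrocyte endfoot genes 4 had a row, Aqp4 rose, and Gjb6 fell although its groups overlapped. Gjb6 read 59.05 and 37.78 in SmoM2 samples and 61.77 and 49.42 in WT samples. Its log2 fold change was -1.03 by the authors' deposited table, while the limma log2 difference was -0.22 ± 0.22 (SE). The endfoot sum overlapped between groups, at 199 and 161 in SmoM2 samples and 178 and 163 in WT samples. For Aqp4 the limma log2 difference was 0.50, and 0.32 leaving out SmoM2 replicate 1.

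All 7 of 9 blood genes with a row fell, against 16.0% of all listed genes. The summed level was 65.6 and 120 in SmoM2 samples and 667 and 451 in WT samples. S100a9 was listed at 0 in both SmoM2 samples. Ly6c1 is also expressed by some leukocytes, and the part of blood in its fall was not tested. Of 10 choroid plexus genes 9 had a row and 7 fell, and their sum was 153 and 728 in SmoM2 samples and 1371 and 1406 in WT samples. Most of it was Ttr, the transthyretin gene, except in SmoM2 replicate 1. Ttr was at 71.2 and 618 in SmoM2 samples and 1203 and 1162 in WT samples. The other 8 genes summed to 81.9 and 109.8 in SmoM2 samples and 168 and 243 in WT samples. The part of choroid plexus tissue in the fall of Slco1a4 and Ly6c1 was not tested.

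**Figure D5:**
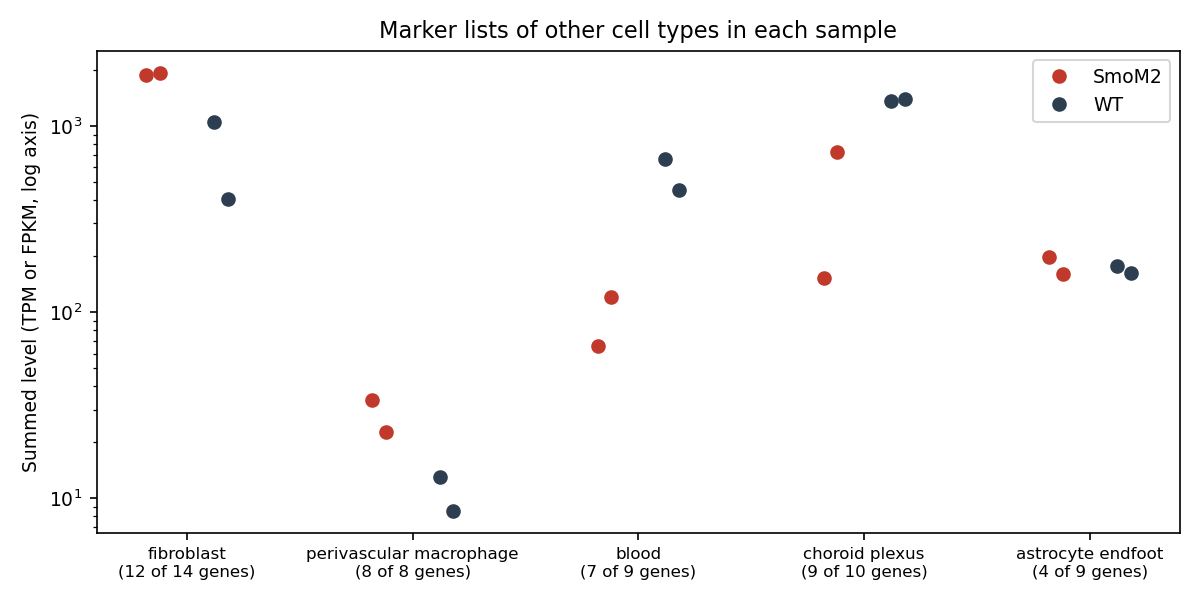
Summed level of the listed genes of 5 marker lists for other cell types, per sample on a log axis, with SmoM2 samples left of WT samples. Fibroblast and macrophage sums lie higher, and blood and choroid plexus sums lower, in both SmoM2 samples; endfoot sums overlap. Ptgds makes up most of the fibroblast sums, and Ttr most of the choroid plexus sums except in SmoM2 replicate 1, at 71.2 of 153.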

How the data were processed

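Libraries were made from 1 ug of total RNA with the TruSeq kit, per the labels' protocols. RSEM, DESeq2 and GRCm38.p6 are named without roles, per the submitters' processing notes. The deposited table gives for each sample a level with 2 decimals, and per gene the authors' fold change as a ratio, the same on the log2 scale, and both raw and adjusted p-values. It holds only genes with an unadjusted p of at most 0.05. The series text also names a minimum fold, which many of its rows, such as those of all 8 genes, do not reach. Multiplying p by 57010 and dividing by its rank gave the deposited adjusted p in 5273 of 5282 genes (tolerance 1e-06). Columns were tied to samples by the pairing in the series text.

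Means and SDs are those of the levels. The limma fit (version 3.58.1, R 4.3.3, mean-variance trend) used log2(level + 1) for 4845 genes averaging 1 or more, two-sided and adjusted by Benjamini-Hochberg over 57010 tests; the scale understates changes of low genes. Because the table is a selected list, the fit is a recalculation and no independent evidence, and the branch of the design for raw counts was not used. The steps were tested on simulated data. Gene positions and 50-base stretches come from GENCODE M21 (GRCm38), promoters from RefSeq (GRCm38.p6). The members, the 17 lists and the tests were chosen with earlier results of these data known. In each list, up to 3 called genes without overlap and with the largest log2 fold changes were to be named; other genes in the text, and the CArG pattern with 1 changed base, were chosen after values or sequences were seen. Same-numbered samples share only a number in the labels.

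Alternatives tried were leaving out each sample, the replicate number as a block, quantile normalization, scaling to equal medians, no filter or a minimum of 5, and pseudocounts of 0.1 and 5.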

Additional observations from a re-analysis of the deposited data

How the results depend on the processing

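Each of the 8 genes kept the sign of its log2 difference under all 11 alternatives. Because the groups of these genes did not overlap, only quantile normalization and equal medians could have changed a sign. The filters and the block left each difference unchanged, and leaving out a sample cannot move one by more than the SD between replicates. For those alternatives a small move was fixed in advance. Of all 88 values, 85 moved by less than that SD. The other 3 were Slco1a4 with a pseudocount of 5, at -0.62, and with equal medians, at -0.85, and Acta2 with a pseudocount of 5, at 0.59. All 8 genes passed in the authors' deposited table at 0.05 and 7 at 0.01, and with limma 0 passed; the cause of that difference was not tested. The limma count was 0 under the other alternatives too. With a sample left out, the lone sample of its group is assumed to vary like the other group, and limma passed only 0 to 2 genes of all 4845, so a count of 0 of the 8 says nothing about stability there. Of the alternatives that could make levels overlap, quantile normalization left 8 genes without overlap and equal medians 7, Kdr being lost. Deviations from the group mean in SmoM2 replicate 1 and WT replicate 1 had a correlation of -0.0934 over 4845 genes. With the replicate block, which changed no call among the 8, limma again passed 0 of them, with a lowest adjusted p of 0.0964. Over all genes limma passed 20 with the block and 6 without it. The other alternatives that kept all 4 samples gave 0 to 6. Quantile normalization shifted the median log2 difference of all fitted genes by -0.13 and equal medians by -0.10. Relative to the median of each scaling, Kdr stood between 0.19 and 0.23, Cdh5 between 0.38 and 0.41, Vtn between 0.79 and 0.84, Slco1a4 between -1.0 and -0.96 and Ly6c1 between -1.16 and -1.15. List medians, examined with samples left out after the data were seen, kept their sign. The median of all fitted genes was between 0.18 and 0.23 there. Counts per library are unknown, and the number of samples limits every value.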
